A study of Drosophila melanogaster with 12 samples.

Results

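Night-high genes are described here: protein-coding genes of the fly head whose transcript level was higher in every library collected at night than in every library collected by day, whichever genotype the flies had. A gene was taken when its TPM (a level scaled to transcript length and library size), summed over its mRNA transcripts, averaged at least 5 over the 12 libraries and its lowest value at ZT16 was at least 25% above its highest value at ZT8. The clock genes per, tim, vri, Pdp1 and cwo were left out by rule. This chose 48 of 13950 mRNA genes, of which 8210 averaged at least 5 TPM. The members were thus chosen on the ZT16 against ZT8 difference itself, so that difference is a description and nothing is read from its calls. The rule did not use genotype, so the effect of genotype is what is tested. That effect is not wholly free of the rule, since a genotype difference large next to the time difference can keep a gene out.

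RNA of Drosophila melanogaster heads, brain included, was sequenced after flies had lived in cycles of 12 h light and 12 h dark and were collected on day 4 at ZT16 (16 h after lights on, in the dark) or ZT8 (8 h after lights on, in the light). Each of the 4 groups held 3 libraries. Knockdown flies (UAS-dicer2 over UAS-dppil4 RNAi, with tim(UAS)-Gal4/+) carried a hairpin against dppil4, which is the gene CG5808 and encodes a cyclophilin-type peptidyl-prolyl isomerase, whereas control flies (UAS-dicer2/+ with tim(UAS)-Gal4/+) lacked the hairpin. Both genotypes carried the Dicer-2 transgene and the tim driver, which acts in clock cells, so in a whole head the hairpin reached part of the cells. In such bulk tissue fewer cells of a type and less RNA per cell cannot be told apart. Nothing in the labels says whether libraries came from separate groups of flies, so the spread between replicates may be technical.

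In the fly circadian clock, the transcription factors Clock and Cycle switch on per and tim late in the day, and the Period and Timeless proteins later return to the nucleus and shut their own genes off. The same loop drives output genes, many of them in tissues other than the brain's pacemaker neurons, including photoreceptors, glia and fat body. Light itself also changes transcript levels, and with samples from 1 day time and 1 night time a clock-driven rise cannot be told apart from an effect of darkness.

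CG5808 averaged 2.88 TPM in knockdown and 4.21 TPM in control heads at ZT16, and 2.88 TPM in knockdown and 3.96 TPM in control heads at ZT8. Over both times it fell by 0.40 on the log2 scale in knockdown (SE 0.11, edgeR quasi-likelihood test, adjusted p = 0.0168). Total counts per library were 25844821 to 31848667 at ZT16 and 36885481 to 37676778 at ZT8, and ribosomal RNA took 6.40% to 9.73% at ZT16 and 2.58% to 7.09% at ZT8. As the library names also follow different styles at the 2 times, the time of day and the library set cannot be told apart. The median mRNA gene at 5 TPM or more differed by -0.09 (log2 of the TPM ratio, ZT16 over ZT8). Together the 48 members made up 0.857% to 1.06% of all TPM at ZT16 and 0.429% to 0.503% at ZT8.

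Of the 48 members, 38 were above 0 TPM in all 6 ZT16 libraries, and these are the night-high genes proper, with 0.857% to 0.954% of all TPM at ZT16. The other 10 were listed at 0 in all 6 ZT8 libraries and in at least 1 ZT16 library, so they met the rule only as 0 against 0 and the label of night-high in both genotypes does not hold for them. They were the digestive serine proteases Jon25Bi, Jon25Bii, Jon25Biii, Jon65Aiii, betaTry and gammaTry, the peptidoglycan-degrading amidase PGRP-SC1a, the acyl-CoA binding protein Acbp5, and CG17239 and CG34324. Control ZT16 replicate 1 held 96.76% to 99.55% of the summed TPM of each. Jon25Biii, the highest, had 0, 0 and 0 TPM in knockdown heads at ZT16, against 416, 8.33 and 0.38 TPM in control heads at ZT16. Jon65Aiii alone among the 10 had any reads in knockdown heads at ZT16 (0.16, 0 and 0.13 TPM, 4 counts in all), against 247, 4.90 and 0.42 TPM in control heads at ZT16.

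The library that carried these genes stood apart in other tissues' markers as well. Summed TPM of 10 midgut markers, which include 3 of the 10 genes, was 2640 in control ZT16 replicate 1 and 28.6 to 136.3 in the other 11 libraries. The sum of 8 ovary and eggshell markers was 1057 in that library and 1.0 to 18.8 in the others. With 0 counts over the 6 ZT8 libraries, each of the 10 genes was below 0.0134 CPM there (counts scaled to library size), a limit from 3 counts that covers counting error only. None of the 10 passed the filter on low counts, so they entered no test. Without control ZT16 replicate 1 the rule chose 45 genes, all above 0 in every remaining ZT16 library, and the 38 were among them.

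**Figure D1:**
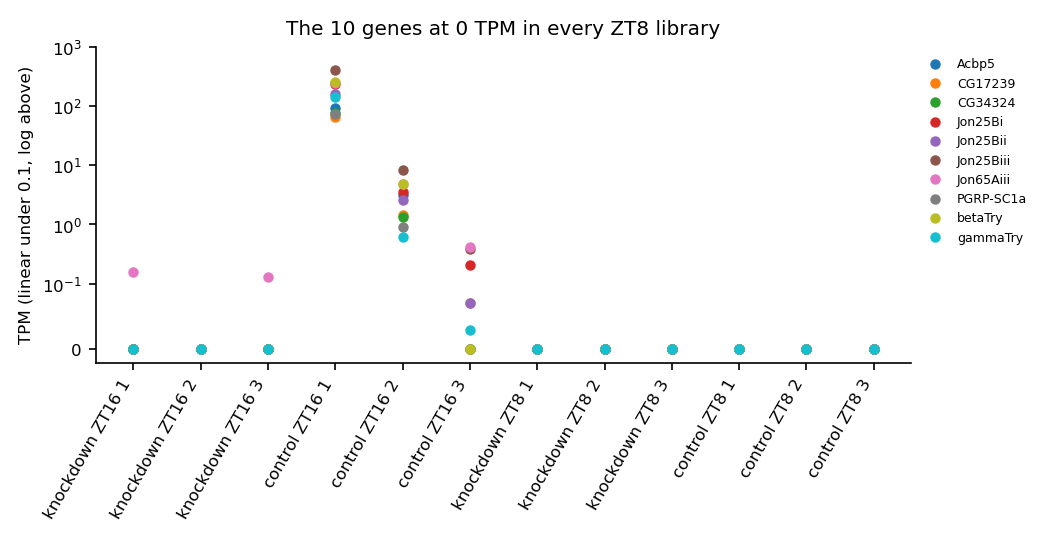
TPM (linear under 0.1, log above) of the 10 genes listed at 0 in every ZT8 library, by library. In control ZT16 replicate 1 they reached 64.5 to 416 TPM, in control ZT16 replicate 2 0.62 to 8.33 TPM, and in the knockdown ZT16 libraries at most 0.16 TPM.

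Among the 38, the median at ZT16 over the median at ZT8 ran between 1.45 and 27.0 and was 1.86 for the middle gene. It was at least 2 for 16 genes and at least 5 for 4 (Achl, Acp1, CG42367 and CG34134), and under 2 for 22. For scale, the same ratio was 2.15 for tim, 1.87 for per, 1.75 for Pdp1, 1.29 for vri and 1.03 for cwo, and of these 5 clock genes only tim would have met the rule's fold. The median level of the 38 was 29.8 TPM, against 28.5 TPM for all mRNA genes at 5 TPM or more. Levels ran between 5.62 and 2486 TPM, with 14 genes under 20 TPM and 11 over 100 TPM. Annotation gave 24 of the 38 only as uncharacterized proteins. Within ZT16, the highest library exceeded the lowest by 1.3 times for the middle gene, and by more than 2 times for 5 genes. Within ZT8 the same spread was 1.37 times, and it exceeded 2 times for 7 genes.

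**Figure D2:**
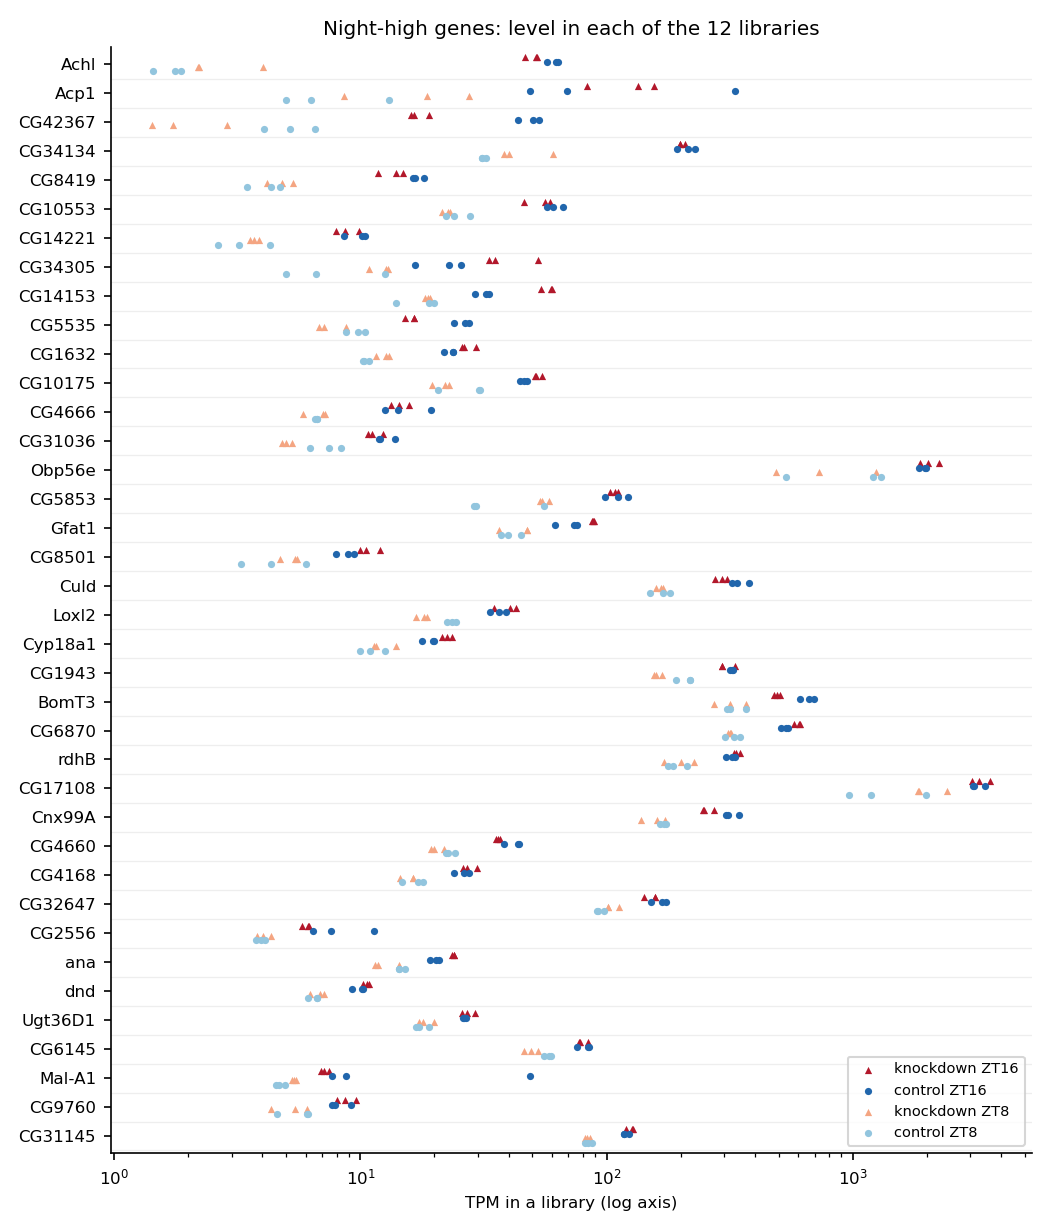
TPM on a log axis of the 38 night-high genes in each library, ordered by the ratio of the ZT16 median to the ZT8 median. Dark symbols are ZT16, pale symbols ZT8, triangles knockdown and circles control. Every dark symbol lies right of every pale one of its gene by construction, and the distance between them is widest for Achl, at 27.0 times.

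Achl (achilles) had the largest difference with time. It is known as a clock-controlled gene that holds down immune gene expression in fly heads (chromosome arm 2R, 14420324 to 14424764, dm6). At ZT16 it had 51.4, 46.5 and 52.1 TPM in knockdown heads and 57.1, 63.8 and 62.1 TPM in control heads. At ZT8 it had 4.02, 2.19 and 2.20 TPM in knockdown heads and 1.44, 1.76 and 1.86 TPM in control heads. Knockdown lay below control at night and above it by day, with no overlap at either time. Achl rose at ZT8 in knockdown (log2 fold change 0.88, SE 0.21, adjusted p = 0.0193), a call lost without control ZT8 replicate 2 or 3. At ZT16 the log2 fold change of -0.23 (SE 0.17) missed the threshold, as did the difference between the effects at the 2 times (-1.11, SE 0.27, adjusted p = 0.0511).

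Immune effectors and recognition genes, the kind of gene Achl is known to restrain, were counted from a list of 40 tested genes. With time, 0 rose and 13 fell in knockdown, and 1 rose and 3 fell in control. Of all genes, 11.8% rose and 11.4% fell in knockdown, and 12.0% rose and 11.8% fell in control. In knockdown against control over both times, 5 of the 40 rose and 14 fell, where 14.7% of all genes rose and 14.1% fell. The 2 times differed. At ZT16, 4 rose and 8 fell, where 11.2% of all genes rose and 11.0% fell. At ZT8, 10 rose and 3 fell, where 8.84% of all genes rose and 6.76% fell. The effect at ZT16 minus that at ZT8 was called higher for 0 and lower for 4. The shares of all genes there were 2.67% higher and 1.51% lower. The counts with time were not compared between the genotypes by a test. BomT3, a night-high gene outside that list, belongs to the Bomanins, short secreted peptides induced through Toll signalling. At ZT16 it had 509, 491 and 480 TPM in knockdown and 666, 696 and 612 TPM in control, and at ZT8 319, 274 and 368 TPM in knockdown and 368, 317 and 309 TPM in control. At night every knockdown library lay below every control library, whereas by day the genotypes overlapped. BomT3 fell in knockdown at ZT16 (log2 fold change -0.36, SE 0.11, adjusted p = 0.0448), and leaving out any of 7 libraries ended that call.

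Acp1 encodes a structural protein of the adult cuticle and had the widest spread at ZT8, where its highest library was 5.54 times its lowest. At ZT16 that spread was 6.79 times for Acp1 and 7.05 times for Mal-A1. At ZT16 Acp1 had 155, 134 and 83.1 TPM in knockdown and 69.3, 333 and 49.1 TPM in control. At ZT8 it had 27.7, 18.7 and 8.54 TPM in knockdown and 13.0, 6.29 and 5.00 TPM in control. The genotypes overlapped at both times, and the log2 fold change of 1.29 at ZT8 had an SE of 0.86 (adjusted p = 0.358).

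Known roles in the eye, chosen as a heading after the members were known, belong to 3 members. Culd is a CUB and LDLa domain protein of photoreceptors that takes part in the turnover of rhodopsin and the TRPL channel. Cnx99A is calnexin, a chaperone of the endoplasmic reticulum that rhodopsin needs to mature. The enzyme rdhB is a retinol dehydrogenase of retinal pigment cells that works in making the visual chromophore. Culd and Cnx99A fell in knockdown at ZT16 while rdhB did not pass the test at either time.

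Culd had 307, 275 and 295 TPM in knockdown and 323, 377 and 338 TPM in control at ZT16, and 170, 166 and 159 TPM in knockdown and 150, 181 and 169 TPM in control at ZT8. The genotypes were apart at night, with knockdown lower, and overlapped by day. Its knockdown effect at ZT16 was -0.19 (SE 0.05, adjusted p = 0.0296), and its difference from the effect at ZT8 was -0.32 (SE 0.08, adjusted p = 0.0462). Each call was lost when any of several libraries was left out, 7 for the effect at ZT16 and 9 for the difference.

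Cnx99A had 272, 246 and 249 TPM in knockdown and 304, 344 and 311 TPM in control at ZT16, and 173, 161 and 138 TPM in knockdown and 165, 174 and 171 TPM in control at ZT8. Again knockdown lay below control in every library at night and overlapped it by day. The log2 fold change was -0.31 at ZT16 (SE 0.07, adjusted p = 0.0117, lost without knockdown ZT16 replicate 2 or 3) and -0.01 at ZT8 (SE 0.07, adjusted p = 0.935). The difference between these effects did not pass the test (-0.30, SE 0.10, adjusted p = 0.122). For rdhB, levels were 347, 330 and 335 TPM in knockdown and 307, 333 and 324 TPM in control at ZT16, and 227, 200 and 172 TPM in knockdown and 212, 178 and 186 TPM in control at ZT8. In TPM its genotypes overlapped at both times, while in CPM every knockdown library lay above every control library at ZT16. Its log2 fold change over both times was 0.16 (SE 0.08, adjusted p = 0.175).

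Photoreceptor markers moved with genotype over the same libraries. Their summed TPM, over 8 genes led by the opsin ninaE, was 29160 to 32519 in knockdown and 36583 to 41928 in control at ZT16, and 32970 to 35940 in knockdown and 40820 to 49437 in control at ZT8. The part of this in the results for Culd and Cnx99A was not tested. A list of 37 photoreceptor and visual cycle genes had 3 that rose and 16 that fell in knockdown over both times, where 28.8% of all genes were called. None of the 38 members is on that list. With time, 10 of the list rose and 6 fell in knockdown, and 5 rose and 7 fell in control. Of all genes, 11.8% rose and 11.4% fell with time in knockdown, and 12.0% rose and 11.8% fell in control. The retinoid-binding gene pinta was among the 3 genes just short of the rule, with a ratio of 1.2452. Its time difference was 0.53 (log2, SE 0.06) in knockdown and 0.94 (SE 0.06) in control.

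Endoplasmic reticulum chaperones and secretion genes were counted from a list of 28 tested genes that includes Cnx99A. Of the other 27, 0 rose and 12 fell with time in knockdown, and 2 rose and 2 fell in control. Among all genes 11.8% were called higher and 11.4% lower at ZT16 in knockdown, and 12.0% higher and 11.8% lower in control. Hsc70-3, the main Hsp70 of that compartment, fell with time in knockdown (log2 fold change -0.45, SE 0.09, adjusted p = 0.00510), whereas its -0.05 in control did not pass the test (SE 0.09, adjusted p = 0.760).

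The transcript variants of Cnx99A differed in their shares between the times. Variant E took 63.68% to 73.93% of the gene's TPM at ZT16 and 32.47% to 43.31% at ZT8. Variant B took 0% to 8.24% at ZT16 and 16.55% to 40.35% at ZT8. These ranges do not overlap, and they were the largest of 13 such differences among the 79 transcripts of the 25 members with more than 1 transcript. That is 16.5%, where 6.31% of 19435 transcripts differed so over all genes at 5 TPM or more with several transcripts, and since time chose the members nothing is read from it. Variants E and B have 2620 and 2623 bases, so their split rests on the few reads that tell them apart, and it was picked out after its values were seen. In 21 of the 25 members 1 transcript led in all 12 libraries. The exceptions were CG9760, whose variants C and D of equal length were listed at equal TPM in every library, and CG31036, CG4168 and Cnx99A, where the lead changed between libraries. For Cnx99A that was knockdown ZT8 replicate 3, with 40.26% for variant B and 32.47% for variant E.

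A shorter Cnx99A variant, D, of 2092 bases, differed by genotype. It took 15.94% to 19.92% of the gene's TPM in knockdown and 2.06% to 9.06% in control at ZT16, and 16.21% to 22.32% in knockdown and 6.37% to 9.27% in control at ZT8. Of the members' 57 transcripts that made up at least 5% of their gene in some library, 3 (5.26%) differed without overlap in the same direction at both times. Over all genes at 5 TPM or more with several transcripts, 5.92% of 13792 such transcripts did, so the members' share was near the background. Beside variant D, these were variants of CG1943. Its variant A took 91.46% to 92.73% in knockdown and 84.96% to 85.74% in control at ZT16, and 93.52% to 93.88% in knockdown and 80.33% to 87.88% in control at ZT8. Its variant C took 1.80% to 2.72% in knockdown and 8.10% to 9.59% in control at ZT16, and 2.02% to 2.28% in knockdown and 7.0% to 11.11% in control at ZT8. These transcripts were found by looking for such differences and carry no test.

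**Figure D3:**
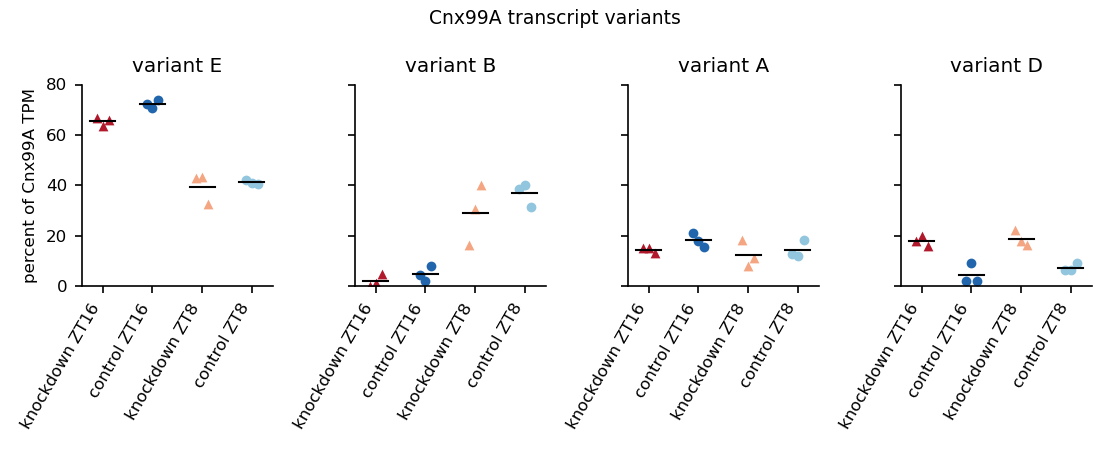
Share (percent of the gene's TPM) of each Cnx99A transcript variant in the 3 libraries of each group, with the group mean as a bar. Variant E is higher and variant B lower at ZT16 than at ZT8 in both genotypes, and variant D is higher in knockdown than in control at both times.

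Enzymes of small-molecule metabolism were the next group. Cyp18a1 inactivates ecdysteroid hormones, Gfat1 makes the first and rate-limiting product of the hexosamine pathway, Ugt36D1 belongs to the family that links sugars to lipophilic compounds, CG6145 is listed by RefSeq as the NAD kinase Nadk1a, and Mal-A1 is a maltase. Of these 5, Cyp18a1, Gfat1 and Ugt36D1 rose in knockdown over both times, where 14.7% of all genes rose.

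Cyp18a1 had 22.4, 23.5 and 21.5 TPM in knockdown and 19.8, 17.8 and 19.98 TPM in control at ZT16, and 11.5, 13.9 and 11.3 TPM in knockdown and 9.97, 10.9 and 12.6 TPM in control at ZT8. In TPM the genotypes were apart at night and overlapped by day, while in CPM every knockdown library lay above every control library at both times. Over both times it rose by 0.30 on the log2 scale (SE 0.07, adjusted p = 0.00724). Gfat1 had 88.9, 87.1 and 88.1 TPM in knockdown and 61.6, 73.7 and 76.0 TPM in control at ZT16, and 47.6, 47.5 and 36.6 TPM in knockdown and 44.9, 37.4 and 39.9 TPM in control at ZT8. Its genotypes were apart at night alone, and its rise of 0.30 (SE 0.09, adjusted p = 0.0282) was lost when any of 9 libraries was left out. Ugt36D1 rose by 0.15 (SE 0.05, adjusted p = 0.0310), a call lost without any of 5 libraries.

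Mal-A1 had 7.13, 6.94 and 7.49 TPM in knockdown and 48.9, 8.73 and 7.65 TPM in control at ZT16, and 5.35, 5.26 and 5.50 TPM in knockdown and 4.96, 4.52 and 4.67 TPM in control at ZT8. The outlying value is that of control ZT16 replicate 1, the library with the midgut marker sum of 2640 TPM, and Mal-A1 is on that marker list. Its ratio of 1.2618 placed it among the 3 members nearest the threshold, with CG9760 at 1.2541 and CG17108 at 1.2623. Just outside were CG46309 at 1.2497, kek4 at 1.2472 and pinta.

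Related genes were counted without the members on each list. Of 75 cytochrome P450 genes other than Cyp18a1, 5 rose and 16 fell with time in knockdown, and 9 rose and 9 fell in control. Of 21 UDP-glycosyltransferase genes other than Ugt36D1, 2 rose and 6 fell in knockdown, and 1 rose and 6 fell in control. Among 23 ecdysone and juvenile hormone genes other than Cyp18a1, 5 rose and 2 fell in knockdown, and 2 rose and 6 fell in control. Among these, Jhe, the esterase that breaks down juvenile hormone, stood at -3.20 (log2, SE 0.25) in knockdown and -4.15 (SE 0.27) in control. Of 25 sugar and starch genes other than Mal-A1, 0 rose and 1 fell in knockdown, and 2 rose and 2 fell in control. Among all genes 23.2% were called with time in knockdown and 23.7% in control. In knockdown against control over both times, members included, 23 of 76 cytochrome P450 genes rose and 4 fell. Of 22 UDP-glycosyltransferase genes, 10 rose and 2 fell. Of 24 ecdysone and juvenile hormone genes 4 rose and 0 fell, and of 26 sugar and starch genes 9 rose and 0 fell. Among all genes 14.7% rose and 14.1% fell, so a rise was not particular to the members.

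Secreted and extracellular proteins included Obp56e of the odorant-binding protein family, Loxl2, a lysyl oxidase that cross-links extracellular matrix, and ana (anachronism), a glycoprotein secreted by glia that holds back the division of larval neuroblasts. Obp56e had 2018, 2235 and 1881 TPM in knockdown and 1960, 1863 and 1980 TPM in control at ZT16, and 488, 728 and 1239 TPM in knockdown and 537, 1214 and 1309 TPM in control at ZT8. Its night values lay close together while its day values spread over 2.68 times, and the genotypes overlapped at both times. The gene ana had 24.1, 23.5 and 24.1 TPM in knockdown and 20.3, 19.2 and 20.9 TPM in control at ZT16, and 11.8, 11.4 and 14.4 TPM in knockdown and 14.4, 14.3 and 15.1 TPM in control at ZT8. At night knockdown lay above control in every library, and by day the ranges met. It rose at ZT16 (log2 fold change 0.30, SE 0.08, adjusted p = 0.0213, lost without control ZT16 replicate 2 or knockdown ZT16 replicate 3). Of 31 odorant-binding protein genes other than Obp56e, 3 rose and 4 fell with time in knockdown, and 10 rose and 1 fell in control, where 11.8% of all genes rose in knockdown and 12.0% in control. The small GTPase dnd, of the Arf-like family, did not pass a genotype test.

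Over both times, 14 of the 38 members (36.8%) were called in knockdown against control, 9 higher and 5 lower. Among all 10717 genes tested, 28.8% were called, 14.7% higher and 14.1% lower. These genes are of any RNA type and include some under 5 TPM. They are thus not matched to the members in level, here or in the shares that follow. At ZT16, 11 members were called (6 higher and 5 lower, 28.9%), where 22.2% of all genes were, 11.2% higher and 11.0% lower. At ZT8, 9 were called (6 higher and 3 lower, 23.7%), where 15.6% of all genes were, 8.84% higher and 6.76% lower. The median log2 fold change of the members was 0.11 over both times, 0.02 at ZT16 and 0.16 at ZT8, and that of all genes -0.01, -0.02 and -0.01. On log2 TPM the median of all genes was lower, -0.11 over both times and -0.14 at ZT8, and that of the members was 0.01 and 0.02, so relative to all genes the members' medians were 0.12 and 0.16 higher on TPM. The genotypes were apart, in CPM, for 23 members at ZT16 (60.5%; 14 with knockdown higher and 9 lower), where they were for 43.7% of all genes, 21.8% higher and 22% lower. At ZT8 they were apart for 15 members (39.5%; 11 higher and 4 lower), where they were for 31.6% of all genes, 15.4% higher and 16.2% lower. Single libraries moved these counts. Over both times 5 were called higher without knockdown ZT16 replicate 1 or 2 or control ZT16 replicate 2, and 14 without control ZT8 replicate 1. At ZT16, 3 were called higher without knockdown ZT16 replicate 3 or control ZT16 replicate 2, and 3, 2 and 2 were called lower without knockdown ZT16 replicate 1, 2 and 3 in turn. At ZT8, 3 were called higher without knockdown replicate 2, 10 without control replicate 1, 2 without control replicate 2 and 1 without control replicate 3. In all, 20 members (52.6%) were called in at least 1 of the 4 genotype comparisons, where 36.7% of all genes were.

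CG42367 had the largest call. This gene of 490 bases of transcript lies on chromosome arm 2L, 9930580 to 9931131 (dm6). It had 19.1, 16.6 and 16.04 TPM in knockdown and 43.9, 53.3 and 50.2 TPM in control at ZT16, and 2.88, 1.74 and 1.43 TPM in knockdown and 6.57, 4.05 and 5.16 TPM in control at ZT8. Knockdown lay below control in all libraries of both times, yet the night values of both genotypes stood far above the day values. It fell in knockdown by 1.45 on the log2 scale at ZT16 (SE 0.21, adjusted p = 9.05e-04) and by 1.26 at ZT8 (SE 0.27, adjusted p = 0.00947), and the difference between these was -0.19 (SE 0.36, adjusted p = 0.801). The day level rested on few reads, with 11 counts in the lowest library.

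CG14153 (chromosome arm 3L, 10643528 to 10644615, dm6) went the other way, and mainly at night. It had 60.3, 59.6 and 54.2 TPM in knockdown and 29.2, 32.4 and 33.2 TPM in control at ZT16, and 18.8, 18.3 and 19.1 TPM in knockdown and 13.9, 19.0 and 19.9 TPM in control at ZT8. The night values were clearly apart. By day the genotypes overlapped in TPM, while in CPM every knockdown library lay above every control library. It rose at ZT16 by 0.93 (SE 0.08, adjusted p = 3.45e-05), while its 0.23 at ZT8 did not pass (SE 0.09, adjusted p = 0.0919). The difference of 0.70 between these effects passed the test (SE 0.12, adjusted p = 0.0202) and was lost without knockdown ZT16 replicate 1, control ZT16 replicate 3, or either of replicates 2 and 3 of control ZT8. CG14153 overlaps CG32066 on the opposite strand, and whether the counting used strand is not given in the sources used here.

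CG5535 had 16.5, 16.5 and 15.2 TPM in knockdown and 27.7, 26.6 and 23.9 TPM in control at ZT16, and 8.74, 7.11 and 6.77 TPM in knockdown and 8.75, 10.4 and 9.79 TPM in control at ZT8. Its night values were lower in every knockdown library. It fell in knockdown at ZT16 by 0.65 (SE 0.09, adjusted p = 6.75e-04), whereas the -0.22 at ZT8 did not pass (SE 0.09, adjusted p = 0.145). The difference between these effects was -0.43 and did not pass (SE 0.13, adjusted p = 0.0849).

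CG1632 had 29.5, 26.4 and 25.96 TPM in knockdown and 21.9, 23.7 and 23.8 TPM in control at ZT16, and 12.7, 13.1 and 11.6 TPM in knockdown and 10.3, 10.8 and 10.2 TPM in control at ZT8. Knockdown lay above control in all libraries of both times. It rose by 0.29 at ZT16 (SE 0.07, adjusted p = 0.00982) and by 0.38 at ZT8 (SE 0.07, adjusted p = 0.00371). With CG42367 and CG31145 it was 1 of 3 members called in the same direction at both times (7.89%), where 6.25% of all genes were. CG31145 rose by 0.13 at ZT16 (SE 0.04, adjusted p = 0.0392) and by 0.14 at ZT8 (SE 0.04, adjusted p = 0.0313), but on log2 TPM its value at ZT8 was -0.01.

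CG31036 and CG1943 fell at ZT8. CG31036 had 12.4, 10.7 and 11.2 TPM in knockdown and 12.0, 13.9 and 11.9 TPM in control at ZT16, and 4.98, 5.26 and 4.79 TPM in knockdown and 6.24, 8.31 and 7.48 TPM in control at ZT8. CG1943 had 331, 294 and 294 TPM in knockdown and 322, 325 and 317 TPM in control at ZT16, and 168, 159 and 155 TPM in knockdown and 191, 218 and 218 TPM in control at ZT8. In both genes the genotypes were apart by day and overlapped at night. The log2 fold change at ZT8 was -0.41 for CG31036 (SE 0.08, adjusted p = 0.00560) and -0.24 for CG1943 (SE 0.05, adjusted p = 0.00613). CG1943 overlaps Ref1 on the opposite strand.

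CG34134 (chromosome arm 2L, 8190297 to 8190781, dm6) had 199, 208 and 199 TPM in knockdown and 193, 214 and 230 TPM in control at ZT16, and 60.5, 38.3 and 40.0 TPM in knockdown and 31.2, 32.4 and 31.1 TPM in control at ZT8. The genotypes overlapped at night, and by day knockdown was higher in every library. It rose at ZT8 by 0.68 (SE 0.15, adjusted p = 0.0135, lost without control ZT8 replicate 2 or 3). CG34305, with a transcript of 300 bases, had 52.5, 35.4 and 33.4 TPM in knockdown and 25.6, 22.9 and 16.6 TPM in control at ZT16, and 12.9, 10.8 and 12.7 TPM in knockdown and 12.6, 6.62 and 5.00 TPM in control at ZT8. The ranges were apart at night and overlapped by day. Its rise over both times was 0.80 (SE 0.25, adjusted p = 0.0335), and it was lost when any of 8 libraries was left out. Among the abundant members, CG6870 rose by 0.23 at ZT16 (SE 0.04, adjusted p = 0.00317), with 609, 607 and 577 TPM in knockdown and 513, 545 and 535 TPM in control.

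**Figure D4:**
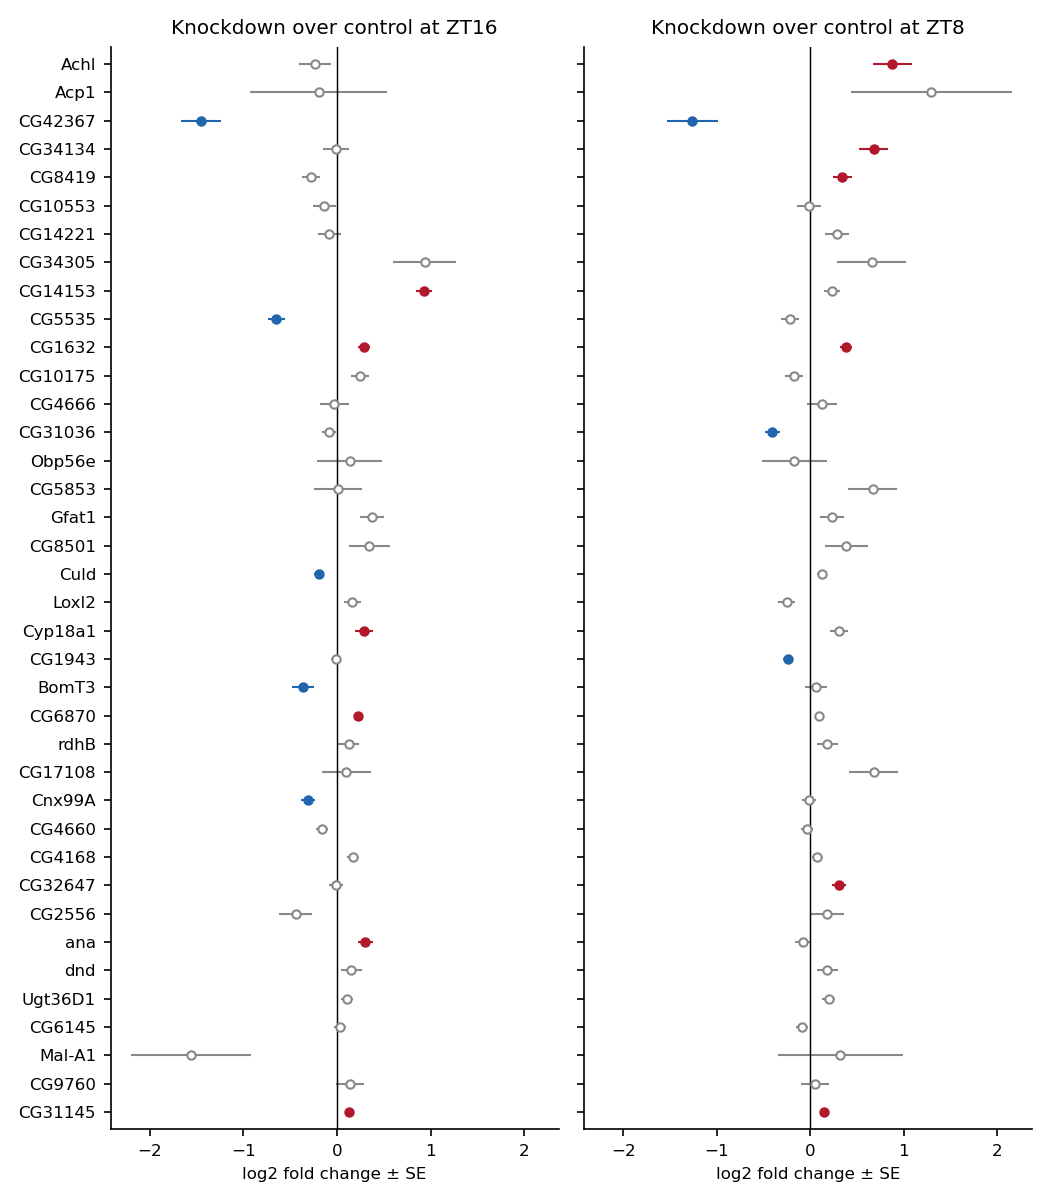
Knockdown over control log2 fold change with its SE for the 38 night-high genes at ZT16 and at ZT8, ordered as in the plot of levels. Filled symbols passed an adjusted p under 0.05, red higher and blue lower in knockdown; open symbols did not. CG42367 is lower at both times, at -1.45 and -1.26, and CG14153 is called at ZT16 only, at 0.93.

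The size of the difference between night and day was compared between genotypes through the interaction, which takes the effect of knockdown at ZT8 away from its effect at ZT16. The rule held each member to the same time direction in both genotypes, with at least its fold in each. Beyond that it did not fix how the size differed between them. Of the 38, 3 passed the test: CG14153 with 0.70, CG8419 with -0.62 and Culd with -0.32. That is 7.89%, 2.63% higher and 5.26% lower, where 4.18% of all genes passed, 2.67% higher and 1.51% lower. None of these 3 calls held when each library in turn was left out. Members called lower were 0 without any of the knockdown ZT16 libraries, or without replicate 2 or 3 of control at either time. They were 1 without knockdown ZT8 replicate 1 or 2, and 5 without knockdown ZT8 replicate 3 or control ZT8 replicate 1. Members called higher were 0 without any of the 4 libraries named for CG14153, 2 without knockdown ZT8 replicate 3 and 3 without control ZT8 replicate 1. A smaller time difference in knockdown than in control was seen in 25 of 38 members (65.8%), and among all genes 56.0% had a negative interaction. These 2 shares are not alike. Of all genes, 45.4% had a negative log2 fold change with time in control, and for those a negative interaction means a larger time difference. The median interaction was -0.09 for the members and -0.03 for all genes. Its size regardless of sign was 0.30 for the middle member and 0.16 for the middle gene of all.

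CG8419 had 14.9, 11.8 and 14.0 TPM in knockdown and 16.3, 18.1 and 16.7 TPM in control at ZT16, and 5.33, 4.79 and 4.18 TPM in knockdown and 3.47, 4.72 and 4.32 TPM in control at ZT8. Knockdown was lower in every library at night. By day the ranges overlapped in TPM, while in CPM every knockdown library lay above every control library. Its interaction of -0.62 (SE 0.14, adjusted p = 0.0370) was lost when any of 9 libraries was left out. CG8419 overlaps Su(var)205 on the opposite strand. The 5 members with the largest ratios, Achl, Acp1, CG42367, CG34134 and CG8419, all had a smaller time difference in knockdown: 4.22 in knockdown and 5.33 in control for Achl, 2.81 in knockdown and 4.29 in control for Acp1, 3.11 in knockdown and 3.30 in control for CG42367, 2.15 in knockdown and 2.84 in control for CG34134, and 1.57 in knockdown and 2.18 in control for CG8419 (log2, ZT16 over ZT8). Of these, only CG8419 passed the interaction test.

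**Figure D5:**
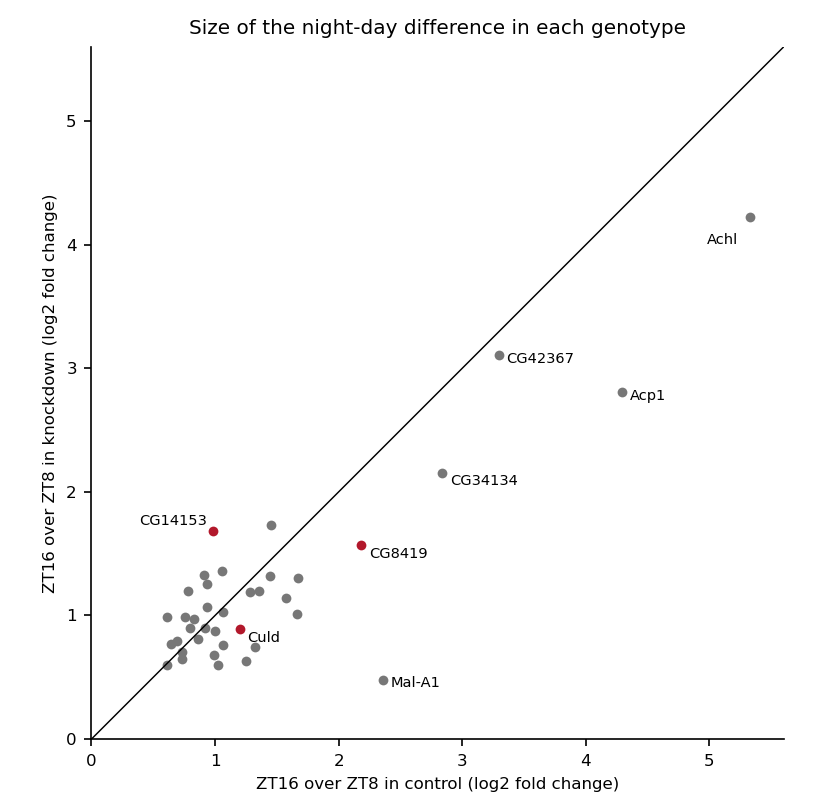
ZT16 over ZT8 log2 fold change of the 38 members in knockdown (vertical) and in control (horizontal), with the line of equal size. Red marks the 3 members called in the interaction. The 5 members with the largest ratios lie under the line. Mal-A1 lies farthest under the line for its size, at 0.48 in knockdown and 2.36 in control. Its control value takes in control ZT16 replicate 1, with 48.9 TPM against 8.73 and 7.65 TPM in replicates 2 and 3.

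In the count model, 36 of the 38 were called higher at ZT16 in knockdown and 37 in control, which follows from how they were chosen. Among all genes 11.8% were called higher in knockdown and 12.0% in control. The exceptions were CG17108 and Mal-A1 in knockdown and Obp56e in control. CG17108, the most abundant member, had 3615, 3255 and 3061 TPM in knockdown and 3099, 3066 and 3453 TPM in control at ZT16, and 2425, 1847 and 1862 TPM in knockdown and 1989, 1189 and 967 TPM in control at ZT8. By day control replicate 1 lay with the knockdown libraries and above the other control libraries. The same held for CG5853, with 58.4, 54.6 and 53.9 TPM in knockdown and 55.6, 28.8 and 29.6 TPM in control at ZT8. Head fat body markers summed to 23803 to 50504 TPM in knockdown at ZT8, against 19194 TPM in control ZT8 replicate 1 and 14548 and 13919 TPM in control replicates 2 and 3. At ZT16 their ranges overlapped, with 24961 to 30485 TPM in knockdown and 18978 to 28857 TPM in control. Other marker sums were also apart at ZT8. Antenna (17.0 to 36.5 against 5.89 to 9.44 TPM) and muscle (1312 to 1726 against 1045 to 1212 TPM) were higher in knockdown. The neuron sum (1314 to 1341 against 1465 to 1760 TPM) and the photoreceptor sum were lower. The part of these differences in the results at ZT8 was not tested. 

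The 38 were spread over the chromosome arms, with 11 on 3R, 9 on 2L, 7 on 2R, 7 on X and 4 on 3L. CG4666 and CG4660 on X were direct neighbours on the same strand, 922 bases apart. CG4666 had a median of 14.3 TPM at ZT16 and 6.65 TPM at ZT8, and CG4660 37.6 TPM at ZT16 and 22.1 TPM at ZT8. On 2L, CG42367 and CG5853 lay 9642 bases apart with 4 genes between them, and CG34134 and CG8419 15390 bases apart with 8 between them. None of the 12 genes in between was night-high by the rule. Several of the 12 are antisense or long noncoding RNA genes, which a rule on mRNA genes could not choose. CG31712, between CG42367 and CG5853, had 113 TPM at ZT16 and 122 TPM at ZT8 (medians). A gene on the opposite strand overlapped 11 of the 38. The middle member's longest transcript was 2018.5 bases, against 2102 bases for mRNA genes at 5 TPM or more.

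Among genes known for cycling transcripts in fly heads, a list of 18 tested genes that includes Cyp18a1, 6 rose and 4 fell with time in knockdown, and 6 rose and 3 fell in control. The core clock and clock protein regulator list of 17 tested genes, which leaves out the 5 genes above, had 1 that rose and 5 that fell in each genotype. With time, 11.8% of all genes rose and 11.4% fell in knockdown, and 12.0% rose and 11.8% fell in control. In knockdown against control over both times, the 18 cycling genes had 4 that rose and 6 that fell, and the 17 regulators had 0 that rose and 2 that fell. Among all genes 28.8% were called there, 14.7% higher and 14.1% lower. The period gene per itself had 71.8, 66.5 and 72.3 TPM in knockdown and 88.8, 98.0 and 92.5 TPM in control at ZT16, and 39.5, 36.4 and 37.7 TPM in knockdown and 46.6, 54.5 and 49.4 TPM in control at ZT8. It fell short of the rule's fold with a ratio of 1.22, its lowest night value being in knockdown and its highest day value in control.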

How the data were processed

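Per the labels' protocols, QIAzol was used for extraction and a TruSeq Stranded mRNA kit for the libraries. The submitters' processing notes name STAR 2.6.0c, RSEM 1.3.1 and dm6. The authors deposited expected counts (held as whole numbers), FPKM and TPM per transcript. The deposited FPKM was not used. Deposited TPM was summed over mRNA transcripts per gene for the rule and the levels. The deposited expected counts were summed per gene and fitted with edgeR 4.0.16 (R 4.3.3): 4 group means, 12 libraries, filterByExpr (minimum count 10), TMM, robust quasi-likelihood F test, Benjamini-Hochberg over 10717 genes, called at 0.05. SE is the log2 fold change over the square root of F. Coordinates are those of the deposited table, newer gene names are from RefSeq and strands from Ensembl.

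On simulated counts of 10614 genes, 200 of them changed, for knockdown against control over both times, the fit recovered 54% of genes changed 1.25-fold, 90% at 1.5-fold, 98% at 2-fold and 98% at 4-fold, with 8 false calls in 178. The changed genes were drawn only from those above a minimum mean CPM, and no effect of time was simulated. These rates do not cover members at low counts, such as CG34305 with a mean of 1.38 CPM. The share of genes changed was also far below the 28.8% called in the data. Alternatives were RLE factors, no filter, DESeq2 1.42.0, limma 3.58.1 (voom, and log2(TPM + 0.1)), each time alone, a replicate block, no rRNA genes, each library left out, and other settings of the rule. Members, lists and named genes (largest ratios, highest levels, largest calls, threshold neighbours, list members) were chosen with earlier results of these data known. BomT3, ana, rdhB, Loxl2, dnd, CG6145, CG32066, CG31712, Ref1, Su(var)205, CG5853, CG4666, CG4660, Hsc70-3 and Jhe were named in addition, several after their values were seen.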

Additional observations from a re-analysis of the deposited data

Results flagged for a closer look

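In 3 members the effect of knockdown differed between the times by the interaction test of edgeR, which is what singled them out. For CG14153 the log2 fold change at ZT16 minus that at ZT8 was 0.6991, with every knockdown library above every control library at night. For CG8419 it was -0.6157, with knockdown lower at night in every library. For Culd it was -0.3156, again with knockdown lower in every night library. Each call was lost without some library, 4 of 12 for CG14153 and 9 of 12 for each of the others.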

How the results depend on the processing

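The number of members was 48, and 21 with a fold of 1.5, 76 with a mean of 1 TPM and 45 to 58 with 1 library left out. In CPM in place of TPM, with the mean of 5 taken in CPM, it was 66, with 32 of the 38 among them. CG42367, CG8501 and dnd kept the fold, with ratios of 2.4597, 1.3736 and 1.3231, and were lost only for averaging under 5 CPM. Cyp18a1, CG17108 and CG34305 fell short of the fold, with ratios of 1.1729, 1.2161 and 1.1911, and CG34305 also averaged under 5 CPM. On log2(TPM + 0.1) with limma, members called higher in knockdown were 4 over both times, 3 at ZT8 and 2 at ZT16, 6 were called lower at ZT8 and 0 lower in the interaction, and the medians were 0.0099 over both times, 0.0234 at ZT8 and -0.0091 for the interaction. CG31145 at ZT8 turned to -0.0147 there. With DESeq2, 10 were called higher at ZT16, and 5 higher and 4 lower in the interaction. Fitted alone, the ZT8 libraries gave 1 called higher and the ZT16 libraries 11. RLE factors and no filter each gave 1 lower in the interaction. Without both control replicates 1, an alternative chosen after seeing the data, 11 were called higher at ZT8, 3 higher and 7 lower in the interaction, and its median was -0.1844.

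The replicate block gave 0 lower in the interaction. Of 18 correlations between same-numbered libraries, 7 were over 0.1 (range -0.197 to 0.256). Differently numbered libraries were not compared, so whether the numbers pair libraries cannot be told. With 1 library left out, calls higher and lower were 5 to 14 and 4 to 5 over both times, 1 to 10 and 3 to 4 at ZT8, 3 to 9 and 2 to 6 at ZT16, and 0 to 3 and 0 to 5 in the interaction; medians were 0.0974 to 0.1349, 0.1187 to 0.1797, 0.0216 to 0.0934 and -0.1982 to -0.0219. Calls with time were 32 to 37 in knockdown and 35 to 38 in control. Of 37 calls of single genes, 36 kept their direction in every setting and 13 stayed past the threshold in every setting. The causes were not tested.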
